A study of Rattus norvegicus with 12 samples.

Results

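The 8 infarcted rat hearts of the series, whether treated or not, were compared with its 4 sham-operated hearts, and the miRNAs that lay on the same side of Sham in both infarcted groups were described. All 12 arrays of the series entered the comparison, 4 MI and 4 YQFM arrays on the infarcted side and 4 arrays on the Sham side, each placed by its sample title. The rats were male Wistar rats. MI and YQFM rats had the left anterior descending coronary artery tied off, were accepted as infarcted by electrocardiogram and ejection fraction, and were kept for 4 weeks before treatment. MI rats, called the chronic heart failure group in the sample labels, then received saline, and YQFM rats received Yiqifumai Powder Injection, a Chinese medicine preparation for injection, at 5 mg/kg/d intraperitoneally for 28 days. Sham rats had the operation without the ligature and received saline. RNA came from left ventricle near the infarct, a tissue that holds several cell types. In such tissue fewer cells of a type and less RNA per cell cannot be told apart. The age of the rats was not given in the sources used here, and the labels number the hearts without saying in words that each was a separate animal, so that p-values measure the spread between these samples.

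MiRNAs are short RNAs that pair with messenger RNAs, mainly through the seed near their 5′ end, and lower the output of those messages. After an infarct, the ventricle replaces dead muscle with scar, and miRNAs of muscle cells and of fibroblasts are known to move apart. miR-208a is encoded inside the cardiac myosin gene Myh6, the miR-30 family is abundant in muscle cells and is known to restrain connective tissue growth factor, miR-22 takes part in the hypertrophic growth of muscle cells, and miR-21 and miR-199a/214 are enriched in fibroblasts and scar.

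The sequences below belong to the miRNAs that the comparison turned on. They are the mature forms in the RefSeq annotation of the GRCr8 assembly, 5′ to 3′, with bases 2 to 8, the seed, in capitals. A mature sequence was found for 239 of the 263 tested miRNAs. The first 6 belong to miRNAs that were lower in the infarcted hearts, and miR-30a-5p and miR-30c-5p are shown because they share the seed of miR-30e-5p.
miR-208a-5p: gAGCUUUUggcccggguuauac
miR-22-3p: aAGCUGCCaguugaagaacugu
miR-652-5p: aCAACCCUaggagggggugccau
miR-30e-5p: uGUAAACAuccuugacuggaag
miR-30a-5p: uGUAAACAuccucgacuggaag
miR-30c-5p: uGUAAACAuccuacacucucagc
The next set holds miRNAs with higher mean signals in both infarcted groups, followed by miR-3120, which comes from the opposite strand of the miR-214 locus and was lower.
miR-21-5p: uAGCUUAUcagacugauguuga
miR-199a-5p: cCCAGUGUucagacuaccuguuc
miR-199a-3p: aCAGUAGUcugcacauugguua
miR-214-3p: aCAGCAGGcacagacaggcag
miR-466c-3p: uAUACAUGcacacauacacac
miR-466b-2-3p: aUAUACAUacacacauacaca
miR-3120: cACAGCAAguguagacaggca

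In GRCr8, miR-208a-5p lies on the minus strand at chr15:32395599-32395620, inside the span of Myh6. miR-22-3p lies on the plus strand at chr10:60805387-60805408, in the span of no other listed gene. miR-652-5p lies on the plus strand at chrX:111140088-111140110, inside Tmem164. miR-30e-5p (chr5:139637504-139637525) and 1 copy of miR-30c-5p (chr5:139634505-139634527) both lie on the minus strand inside Nfyc. miR-199a-5p (chr13:77116255-77116277), miR-199a-3p (chr13:77116294-77116315) and miR-214-3p (chr13:77121713-77121733) lie on the plus strand inside the span of Dnm3. miR-3120 (chr13:77121672-77121692) lies on the minus strand of the same span, with 20 bases between it and miR-214-3p. miR-466c-3p (chr17:72927610-72927630) and miR-466b-2-3p (chr17:72942475-72942495) lie on the minus strand inside Sfmbt2. Whether these positions are exonic or intronic was not determined here, since the annotation used gives gene spans only.

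The array held 758 rat miRNAs, of which 471 were detected on no array, 201 on all 12 arrays, and 263 on enough arrays to be tested. Values are log2 signals after each array was scaled to its 75th percentile, taken over the miRNAs that all 12 arrays detected. Between 211 and 268 miRNAs were detected per array. The mean was 246 ± 19.6 (SD, n = 8) in infarcted and 242.5 ± 9.15 (SD, n = 4) in Sham hearts (exact two-sided permutation test, p = 0.723). The 3 slides were not balanced over the groups. MI 1 to 3 filled slide 1, MI 4 and YQFM 1 shared slide 2, and Sham 1 to 4 and YQFM 2 to 4 shared slide 3. YQFM 2 to 4 lay in another row of slide 3 than the Sham arrays, so that within this slide row and group cannot be told apart. MI and Sham shared no slide. With slide as a block, MI 1 to 3, alone on slide 1, therefore add nothing to the difference from Sham. That fit rests on YQFM 2 to 4 against Sham and on MI 4 against YQFM 1. The labels of MI 4 and Sham 4 conflicted, since the source name of MI 4 says SHAM and that of Sham 4 says YQFM, and the counts and the calls of single miRNAs that turned on them are given with and without them.

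In the infarcted hearts the differences from Sham were mostly small and, with the scaling and signal used here, mostly downward. Among the 263 tested miRNAs, 188 (71.5%) moved the same way in MI and in YQFM against Sham, 130 of them lower and 58 higher in both. Both infarcted groups were set against the same 4 Sham arrays, so that this count is given without a test. 1 miRNA (0.38%), miR-208a-5p, passed an adjusted p of 0.05 for the mean of MI and YQFM against Sham (limma, Benjamini-Hochberg). At an unadjusted p of 0.05, 49 miRNAs (18.6%) were lower and 5 (1.9%) were higher, and all 49 of the former were lower in MI and in YQFM. The median difference over all tested miRNAs was -0.09 on the log2 scale. The direction of this balance depended on the scaling and the signal. At an unadjusted p of 0.05 the split was 11 lower to 18 higher with the brightest probe (median 0.071). It was 6 to 7 with the total gene signal (median 0.045), 3 to 9 with the authors' values and 22 to 0 with normexp background correction. With the 75th percentile over all miRNAs of the array, the median was 0.0064 and the split was 25 lower to 22 higher, with quantile normalization it was 33 to 12, and without scaling it was 3 to 8. All 49 lower miRNAs stayed below 0 on the log2 scale under these 3 scalings, 48 did with the authors' values, 42 with the total gene signal, 40 with normexp background correction, 46 with the brightest probe, 46 for YQFM 2 to 4 against Sham on the shared slide and 40 with slide as a block. The 5 higher miRNAs stayed above 0 in each of these except 1, miR-878, which was at 0.0 on the shared slide and with slide as a block. Both sets were picked by their direction on these same arrays, so these counts are no separate support. Over all 263 tested miRNAs, 204 were lower on the shared slide and 194 with slide as a block. Of the 5 higher miRNAs, 2 (miR-672-5p and miR-878) were tested only because infarcted hearts detected them, so the number of higher miRNAs partly follows from the detection rule.

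For 46 of the 54 miRNAs at an unadjusted p under 0.05 in the pooled comparison, the difference from Sham was larger in MI than in YQFM. MI alone differed from Sham for 19 miRNAs (7.22%) by limma at an adjusted p of 0.05, of which 18 were lower in MI and in YQFM. YQFM differed from Sham for 0 (0.0%) by limma, with 15 at an unadjusted p of 0.05, and YQFM from MI for 0 (0.0%) by limma, with a smallest adjusted p of 0.0786. MI and YQFM were not shown to differ for any tested miRNA in this model, which is no evidence of equal levels. Single arrays moved these counts. For MI against Sham the count was 62 without MI 4, 29 without YQFM 1 and 4 without MI 2 or without MI 3, 11 without MI 1, 12 without Sham 2 and 7 without Sham 1 or without Sham 4. For YQFM against MI it was 28 without MI 4 and 23 without YQFM 1.

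**Figure D1:**
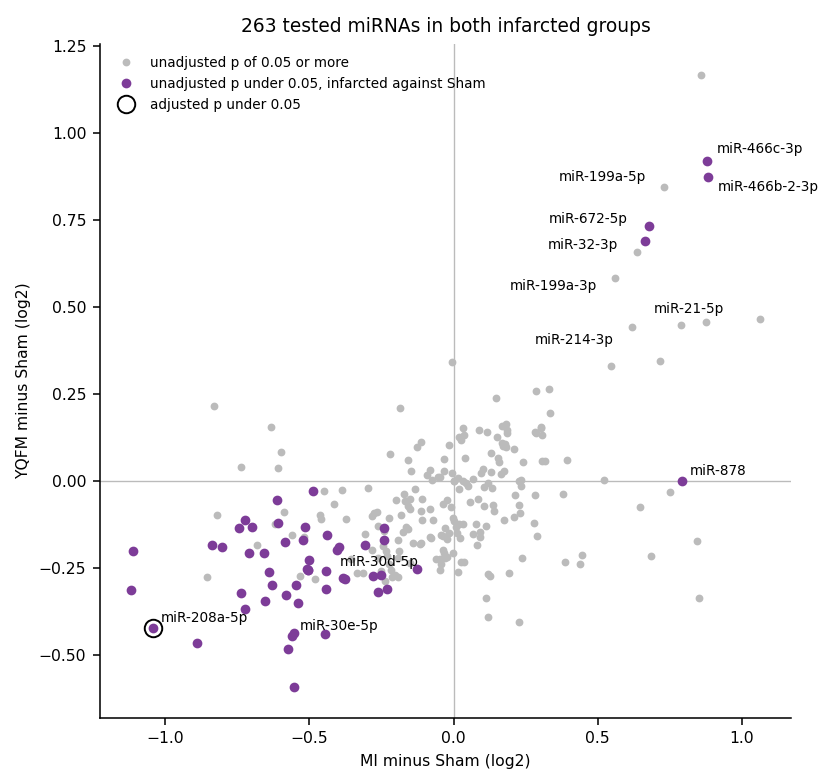
Each point is 1 of the 263 tested miRNAs, placed by its mean difference between MI and Sham (x axis, log2) and between YQFM and Sham (y axis, log2). Purple points had an unadjusted p under 0.05 for infarcted against Sham, and the ring marks miR-208a-5p, the miRNA that passed the adjusted threshold. Both axes use the same Sham arrays. Of the purple points, 49 lie at the lower left.

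MI 4 weighed heavily on these counts. For 36 of the 49 lower miRNAs it was the highest of the MI arrays, nearest to Sham. The matching count over all tested miRNAs is not given, so this is not shown to be particular to the 49. Without MI 4, 38 of the 263 tested miRNAs passed an adjusted p of 0.05 (35 lower and 3 higher). Without both arrays with conflicting labels, 36 of the 263 passed (34 lower and 2 higher). The 38 included 15 of the 20 miRNAs named below by rule, 6 of the 7 that did not overlap between infarcted and Sham hearts, and 4 of the 5 members of the miR-30-5p family. The 20 and the 7 were picked from these same hearts by small p or by separation, so their calls here are no separate support. Without both of those arrays 13 of the 20 and 6 of the 7 passed, with adjusted p from 0.0219 to 0.0496 for the 13, and miR-208a-5p stayed called (-0.82, limma adjusted p = 0.0143). The differences then were -0.55 for miR-30e-5p, -0.43 for miR-652-5p, -0.41 for miR-22-3p, -0.36 for miR-30d-5p and -0.54 for miR-3120, while miR-378b did not pass (-0.28, limma adjusted p = 0.115). miR-1249 moved to -0.70, miR-409a-3p to -0.61, miR-6328 to -0.52, miR-3573-3p to -0.49, miR-133c to -0.41, miR-3544 to -0.37, miR-193a-5p and miR-292-5p to -0.36 and miR-149-3p to -0.35, all of them called, as was miR-30b-5p (-0.52, limma adjusted p = 0.0295). MI 4 also lay on another slide than the remaining MI arrays, and the part of slide or label in this was not tested.

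miR-208a-5p, the passenger arm of a muscle cell miRNA encoded in Myh6, was the miRNA that passed the test, and it was lower in both infarcted groups. Its log2 signal was 4.18, 4.16, 3.91 and 3.95 in Sham, 3.07, 2.81, 2.83 and 3.32 in MI, and 3.27, 3.88, 3.64 and 3.72 in YQFM. It is a dim miRNA, well above background on 4 Sham, 4 YQFM and only 1 of 4 MI arrays, so that the sizes below depend on MI signals near background. Every infarcted heart lay below every Sham heart. The pooled difference was -0.73 ± 0.13 (SE, limma adjusted p = 0.0419, range over the alternatives 0.0057 to 0.899). The difference was -1.04 in MI (limma adjusted p = 0.0068) and -0.42 in YQFM (limma adjusted p = 0.452). The fall was -0.31 for YQFM 2 to 4 against Sham on the shared slide and -0.28 with slide as a block, both without a call. The call was lost when MI 1, MI 2, MI 3, any 1 of the Sham arrays, YQFM 3 or YQFM 4 was left out, with differences from -0.78 to -0.67 over all 12 single omissions. The difference was -0.012 with normexp background correction. That correction also adds an offset of 50 to every spot. How much of the change came from the offset and how much from the background correction was not tested. The guide arm miR-208a-3p was detected on 1 Sham array and no infarcted array and was not tested.

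Altogether 7 miRNAs (2.66%) had all 8 infarcted hearts on 1 side of all 4 Sham hearts, and all 7 were lower in the infarcted hearts, while 0 (0.0%) were higher. They were miR-208a-5p, miR-30e-5p, miR-3120, miR-652-5p, miR-22-3p, miR-30d-5p and miR-378b. They were picked for this separation, so no test of it is given. The count rests on the scaling. It was 0 with the 75th percentile over all miRNAs, with quantile normalization and without scaling, and it was 11, 14, 12 and 17 when Sham 1, Sham 2, Sham 3 or Sham 4 was left out. On slide 3 the differences between YQFM 2 to 4 and Sham ran from -0.39 to -0.22, where the sign is fixed by the choice of these miRNAs, and with slide as a block the pooled differences ran from -0.41 to -0.12.

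miR-22-3p, a miRNA abundant in heart muscle, differed by -0.38 on the log2 scale between the infarcted and the Sham hearts. It measured 10.82, 10.68, 10.80 and 10.82 in Sham, 10.36, 10.13, 10.26 and 10.60 in MI, and 10.45, 10.34, 10.52 and 10.57 in YQFM. The Sham hearts spanned a narrow range that no infarcted heart reached. The pooled difference was -0.38 ± 0.090 (SE), a 1.30-fold lower signal that did not pass adjustment (limma adjusted p = 0.0557), with -0.44 in MI and -0.31 in YQFM.

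miR-652-5p, the 5p arm of a miRNA within Tmem164, followed the same order. It measured 10.25, 9.88, 10.08 and 9.96 in Sham, 9.57, 9.35, 9.54 and 9.68 in MI, and 9.69, 9.85, 9.78 and 9.82 in YQFM. The highest YQFM heart was just under the lowest Sham heart. The difference was -0.38 ± 0.088 (SE, limma adjusted p = 0.0557), with -0.51 in MI and -0.26 in YQFM.

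miR-3120, the mirror miRNA of the miR-214 locus printed above, was named after its values were seen, since it was well above background on only 2 MI arrays. It measured 4.27, 4.23, 4.15 and 4.10 in Sham, 3.72, 3.23, 3.41 and 3.86 in MI, and 3.71, 4.10, 3.88 and 3.86 in YQFM. YQFM 2 lay just under Sham 4, and the other infarcted hearts lay lower. The difference was -0.46 ± 0.12 (SE, limma adjusted p = 0.0688). With normexp background correction, which includes the offset of 50, it was -0.016, and the part of the offset in this was not tested. The 5 brighter miRNAs without overlap then ranged from -0.36 for miR-22-3p to -0.19 for miR-378b.

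miR-378b, a relative of the miR-378a that is encoded in the metabolic gene Ppargc1b, was the member whose YQFM mean lay below its MI mean. It measured 7.31, 7.06, 7.07 and 7.16 in Sham, 6.96, 6.91, 6.83 and 6.98 in MI, and 7.04, 6.79, 6.85 and 6.67 in YQFM. The gap between the highest infarcted and the lowest Sham heart was narrow. The difference was -0.27 ± 0.083 (SE, limma adjusted p = 0.125), with -0.23 in MI and -0.31 in YQFM. miR-378a-5p, an arm of that relative, differed by -0.29 ± 0.10 (SE, limma adjusted p = 0.157).

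**Figure D2:**
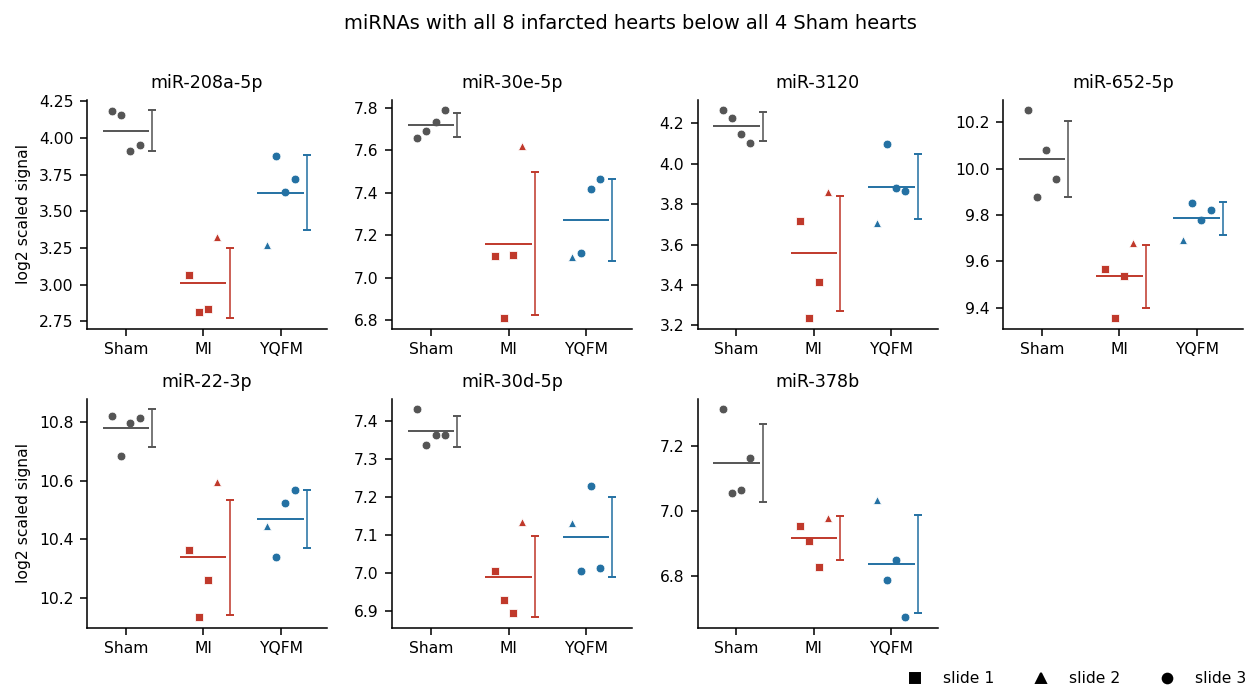
Points are the log2 scaled signals of single hearts for the 7 miRNAs without overlap, by group, with the group mean as a line and the SD (n = 4) as a bar beside it. Symbols mark the slide. In every panel all MI and YQFM points lie under all Sham points, and in 6 of the 7 panels the MI mean is under the YQFM mean, miR-378b being the exception.

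The miR-30 family, known to be abundant in muscle cells and to restrain connective tissue growth factor, was lower in both infarcted groups for all 5 members measured. Over all 263 tested miRNAs, 130 were lower in both. None of the 5 passed adjustment, and 2 had an unadjusted p under 0.05. The median over the 5 members was -0.33, beside -0.09 over all tested miRNAs. miR-30e-5p measured 7.66, 7.69, 7.73 and 7.79 in Sham, 7.10, 6.81, 7.11 and 7.62 in MI, and 7.10, 7.12, 7.42 and 7.46 in YQFM. MI 4 was just under the lowest Sham heart and the other infarcted hearts were lower. Its difference was -0.50 ± 0.14 (SE), a 1.42-fold lower signal (limma adjusted p = 0.0907). miR-30d-5p measured 7.43, 7.34, 7.36 and 7.36 in Sham, 7.01, 6.93, 6.89 and 7.13 in MI, and 7.13, 7.01, 7.23 and 7.01 in YQFM. The 4 Sham hearts lay close together, and the difference was -0.33 ± 0.072 (SE, limma adjusted p = 0.0557). miR-30b-5p differed by -0.38 ± 0.19 (SE), miR-30c-5p by -0.30 ± 0.14 and miR-30a-5p by -0.22 ± 0.10, with adjusted p from 0.244 to 0.272. For these 3 members MI 4 lay inside the range of Sham or above it. On the shared slide the family median was -0.31 and with slide as a block -0.17, and with the 75th percentile over all miRNAs it was -0.23. The mature miR-30a-5p, miR-30c-5p and miR-30e-5p printed above carry the same seed, GUAAACA. The printed miR-30a-5p and miR-30e-5p are nearly alike over their whole length, so that their probes may share signal.

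The 4 miRNAs listed as fibroblast and scar markers had higher means in both infarcted groups, and none passed the test. The list median was 0.59, beside -0.09 over all tested miRNAs, with members from 0.53 to 0.79. Their summed scaled signal was 380 to 561 in Sham, 473 to 1104 in MI and 488 to 1543 in YQFM hearts, so that the groups overlapped. miR-21-5p, the best known miRNA of cardiac fibroblasts, measured 7.93, 7.40, 7.96 and 7.94 in Sham, 9.20, 8.67, 7.67 and 8.85 in MI, and 9.34, 7.93, 7.82 and 7.93 in YQFM. MI 1, MI 2, MI 4 and YQFM 1 were high, and MI 3 and YQFM 2 to 4 lay within the range of Sham. The difference was 0.62 ± 0.33 (SE, limma adjusted p = 0.287), a 1.54-fold higher mean. miR-199a-5p measured 4.03, 3.79, 4.36 and 3.81 in Sham, 5.08, 5.02, 3.83 and 4.96 in MI, and 6.32, 4.44, 4.13 and 4.47 in YQFM. YQFM 1 was the highest heart, MI 3 lay among the Sham hearts, and YQFM 2 and YQFM 4 were just above the highest Sham heart. The difference was 0.79 ± 0.38 (SE, limma adjusted p = 0.272). Its opposite arm miR-199a-3p differed by 0.57 ± 0.34 (SE) and miR-214-3p by 0.53 ± 0.32 (SE), both with a limma adjusted p of 0.331, and in both YQFM 1 was again the highest of all hearts.

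Within slide 3, YQFM 2 to 4 exceeded Sham by 0.35 for miR-199a-5p, 0.16 for miR-199a-3p, 0.085 for miR-21-5p and 0.042 for miR-214-3p. With slide as a block all 4 turned negative, from -0.70 for miR-214-3p to -0.16 for miR-21-5p. That fit takes nothing from MI 1 to 3 and sets MI 4 against YQFM 1, the highest heart for all 4. Without YQFM 1 the pooled differences were 0.44 for miR-21-5p, 0.54 for miR-199a-5p, 0.36 for miR-199a-3p and 0.33 for miR-214-3p. YQFM 1 held both the highest signal of miR-214-3p (8.59) and, among YQFM hearts, the lowest of miR-3120 (3.71), which flanks it on the other strand.

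**Figure D3:**
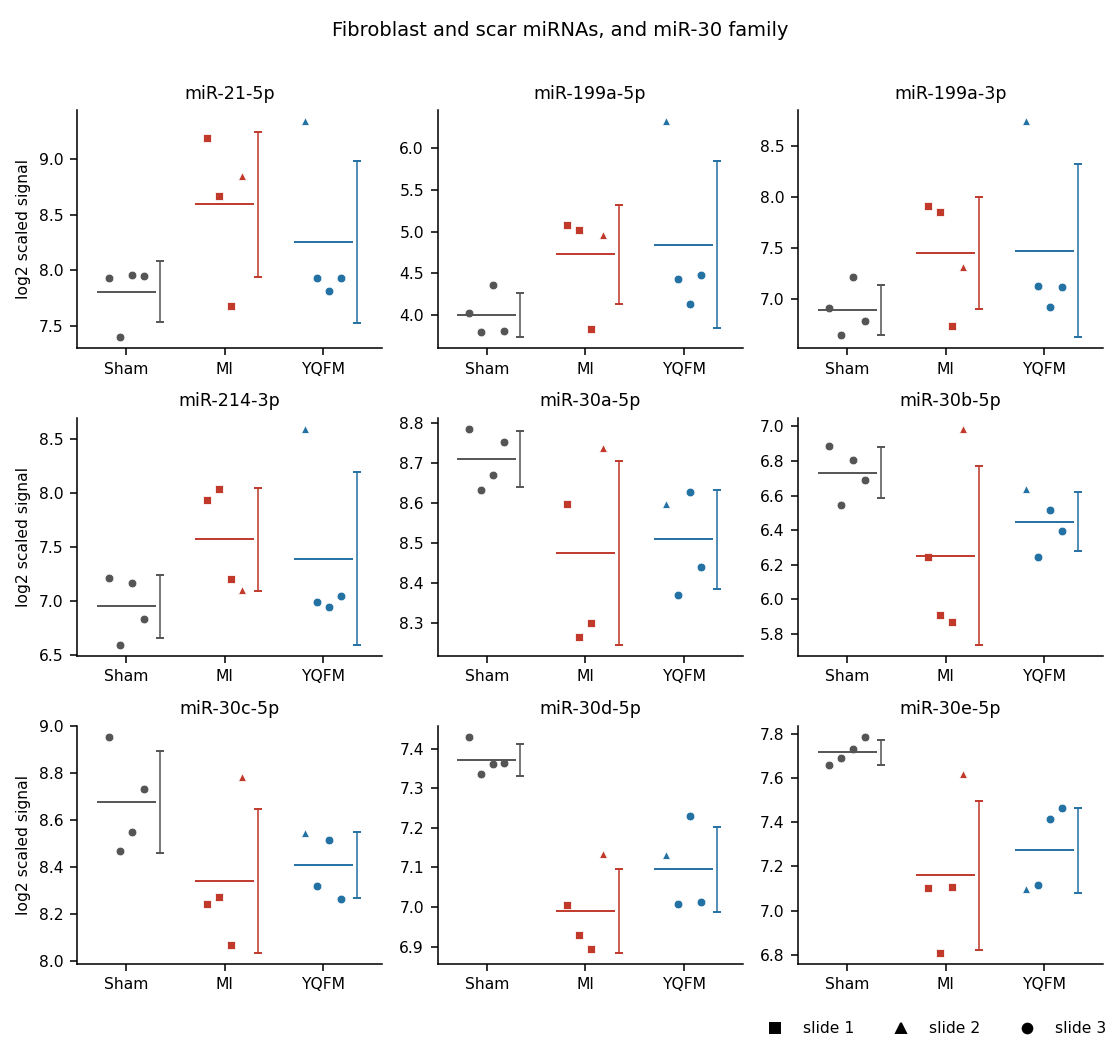
Points are log2 scaled signals of single hearts for the 4 fibroblast and scar miRNAs and the 5 miR-30-5p miRNAs, with group means as lines, SDs (n = 4) as bars and symbols for the slide. The fibroblast miRNAs are high in YQFM 1 and in most MI hearts, while YQFM 2 to 4 on slide 3 lie below YQFM 1. All 5 miR-30-5p means are lower in MI and in YQFM than in Sham.

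The cardiomyocyte miRNAs themselves differed little. Those tested were detected on all 12 arrays, with miR-1-3p at 12.12 to 12.67 and miR-133b-3p at 12.36 to 12.66 on the log2 scale in Sham hearts. Of the 6 listed, 4 were tested, none was called, and the median difference was -0.15, turning to 0.031 with the brightest probe of each miRNA and to 0.068 with slide as a block, and at 0.0 with quantile normalization. miR-1-3p differed by -0.14 ± 0.12 (SE), miR-133a-3p by -0.051 ± 0.086, miR-133b-3p by -0.16 ± 0.099 and miR-499-5p, encoded in Myh7b, by -0.17 ± 0.15. miR-208b-3p, of the Myh7 locus, was detected on no array. miR-133c, by contrast, had a difference that did not pass the test (-0.36 ± 0.092, limma adjusted p = 0.0688). It is annotated on the strand opposite miR-133a-3p, and all of its 21 bases are the reverse complement of bases of miR-133a-3p. It measured 4.98 to 5.33 in Sham, 4.47 to 4.55 in MI and 4.77 to 5.16 in YQFM, so that MI stood apart and YQFM overlapped Sham.

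Among markers of other cells, both smooth muscle miRNAs had lower means in both groups (median -0.17, turning to 0.040 with the brightest probe), and the 2 endothelial arms of miR-126a had a median of 0.017, which turned to -0.066 on the shared slide, -0.017 with slide as a block and -0.030 with the mean over all spots. Of the 6 leukocyte miRNAs 4 were tested, with a median of -0.027 that was above 0 in 6 of 12 alternatives and differences from -0.10 to 0.044, and miR-142-3p and miR-142-5p, which define that list, were detected on no array. Of the erythrocyte miRNAs, miR-144-3p and miR-144-5p were detected on no array. miR-486, a miRNA of red blood cells and muscle, had a lower mean in the infarcted hearts (-0.29 ± 0.095, SE, limma adjusted p = 0.157), and its Sham hearts measured 7.61 to 7.95 against 7.32 to 7.68 in the infarcted hearts. The only other tested member of this list, miR-451-5p, differed by -0.079. The list median was -0.19, turning to 0.084 with the total gene signal and 0.17 with the authors' values. The summed erythrocyte signal was 198 to 251 in Sham and 162 to 214 in the infarcted hearts. This sum was mostly that of miR-486, so it adds little to the values above. The part of these cell types in the other differences was not tested.

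The functional lists held no called miRNA. The antifibrotic list of miR-29 and miR-30 members had a median of -0.26 with 7 of 8 members lower in both groups. Its 3 miR-29 members, which restrain collagen genes, had a median of -0.054 that was above 0 in 6 of 12 alternatives, and ran from -0.18 for miR-29c-3p to 0.21 for miR-29a-3p. The median of the whole antifibrotic list stayed below 0 in all 12. The hypertrophy list had a median of 0.12, with 4 of 6 tested members higher and miR-22-3p lower in both groups, and turned to -0.036 on the shared slide and -0.21 with slide as a block. The ischemia and cell death list had a median of 0.17, with 4 of 6 tested members higher in both groups, and turned to -0.060 on the shared slide and -0.40 with slide as a block. In the same list miR-210-3p, the miRNA best known from low oxygen, had a lower mean that did not pass the test (-0.24 ± 0.14, SE, limma adjusted p = 0.331).

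**Figure D4:**
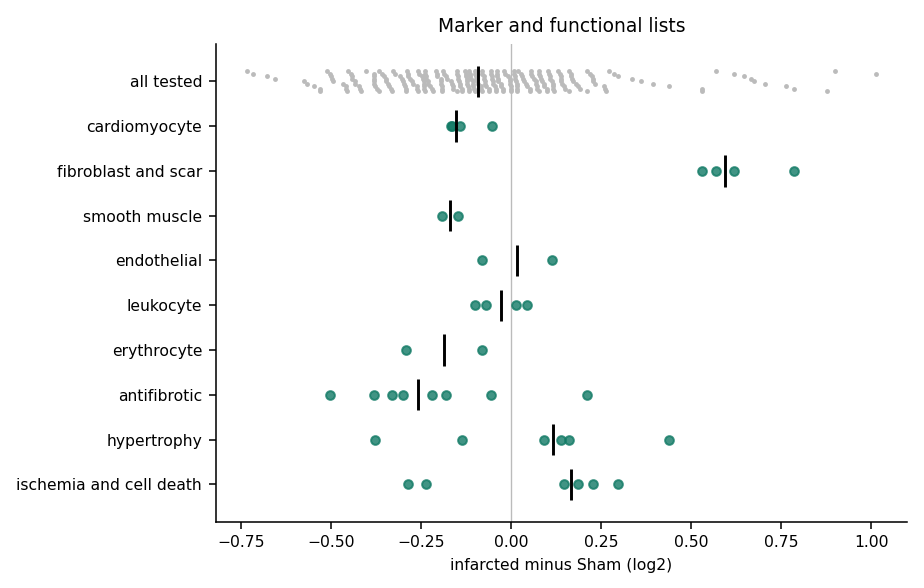
Each point is the difference between infarcted and Sham hearts (log2) of 1 tested miRNA, for all 263 tested miRNAs in grey and for each list in green, with the median as a black line. The 4 fibroblast and scar miRNAs lie from 0.53 to 0.79 and 7 of the 8 antifibrotic miRNAs lie below 0.

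Grouping the tested miRNAs by bases 2 to 8 gave 8 families of at least 3 members, 0 of them with a called member. The miR-30 seed was described above. The miR-25, miR-92a and miR-92b family, of which no member is on a list, had a median of -0.20 that stayed below 0 in all 12 alternatives for scaling, signal and slide, and 2 of its 3 members had an unadjusted p under 0.05. miR-92b-3p, named after its values were seen, differed by -0.66 ± 0.20 (SE, limma adjusted p = 0.125), with -1.11 in MI and -0.20 in YQFM. It was 0.037 with slide as a block, and -0.84 and called without the 2 arrays with conflicting labels (limma adjusted p = 0.0182). miR-92a-3p differed by -0.20 ± 0.091 (SE, limma adjusted p = 0.239) and miR-25-3p was near 0. All 4 tested miR-181 miRNAs had lower means in both groups (median -0.15, turning to 0.0010 with the total gene signal). Of the 5 members of the miR-17 and miR-20 seed family 4 were lower in both (median -0.093, above 0 in 6 of 12 alternatives). Of the 9 let-7 and miR-98 miRNAs 6 were higher in both (median 0.10, turning to -0.12 on the shared slide, -0.31 with slide as a block and -0.020 with the mean over all spots). The miR-15, miR-16 and miR-195 family, with 4 of its 5 members on the hypertrophy or ischemia and cell death lists, had 4 higher in both (median 0.19, turning to -0.041 on the shared slide and -0.44 with slide as a block). The families of miR-1 and miR-206 (median -0.14, turning in 2 of 12 alternatives) and of miR-29 held no member with an unadjusted p under 0.05.

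The 15 further miRNAs named by rule, those with the smallest unadjusted p among miRNAs detected on all 12 arrays and moving the same way in both groups, were all lower, by 0.19 to 0.68 on the log2 scale. miR-292-5p, of an embryonic stem cell cluster, differed by -0.32 (limma adjusted p = 0.0557) and miR-193a-5p by -0.38 (limma adjusted p = 0.0557). miR-292-5p measured 5.15 to 5.38 in Sham, 4.67 to 4.86 in MI and 5.00 to 5.21 in YQFM. miR-193a-5p measured 3.44 to 3.61 in Sham, 2.77 to 3.03 in MI and 3.11 to 3.52 in YQFM. In both, MI lay apart from Sham and YQFM overlapped it. miR-19b-3p, of the miR-17-92 cluster, was lower by about the same amount in MI (-0.44) and YQFM (-0.44), with Sham hearts at 5.07 to 5.39 and infarcted hearts at 4.39 to 5.10. miR-1224 was likewise lower in both, by -0.55 in MI and -0.59 in YQFM, with Sham hearts at 10.72 to 11.55 and infarcted hearts at 10.33 to 10.91. For miR-19b-3p MI 1 alone among the infarcted hearts reached the range of Sham, while for miR-1224 hearts of both infarcted groups did. miR-702-3p had the largest difference of the 15 (-0.68 ± 0.25, SE), with MI at 3.50 to 4.60, YQFM at 3.62 to 4.85 and Sham at 4.66 to 5.10. miR-1249 differed by -0.84 in MI and by -0.18 in YQFM. miR-149-3p, miR-3573-3p, miR-409a-3p, miR-3544, miR-6328 and miR-328a-5p completed the set, with differences from -0.45 to -0.19 and adjusted p from 0.0907 to 0.170.

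On the higher side 5 miRNAs had an unadjusted p under 0.05, and they were named after their values were seen. miR-466c-3p and miR-466b-2-3p come from the Sfmbt2 cluster. Read 1 base apart, their printed sequences match at 19 of 20 bases, so that their probes may share signal. miR-466c-3p measured 5.94, 4.59, 3.74 and 4.41 in Sham, 5.75, 5.50, 5.73 and 5.22 in MI, and 5.39, 5.42, 6.56 and 4.99 in YQFM. Sham 1 lay as high as the infarcted hearts and the other 3 Sham hearts lay below all of them. The difference was 0.90 ± 0.38 (SE, limma adjusted p = 0.210), nearly the same in MI (0.88) and in YQFM (0.92). miR-466b-2-3p differed by 0.88 ± 0.37 (SE, limma adjusted p = 0.212) and miR-32-3p by 0.68 ± 0.28 (SE). miR-672-5p was detected on only 1 Sham array and was tested only through the infarcted groups. Its difference of 0.70 is therefore a description. Sham 1 was again the highest Sham heart for miR-466b-2-3p, miR-32-3p and miR-672-5p. On the shared slide, where the sign is partly fixed by the choice of miRNAs, these and miR-466c-3p differed by 0.75 to 0.99. miR-878 was not well above background on any Sham or YQFM array and was detected on 3 of 4 MI arrays, so that it was tested only through MI and its values are a description. Its MI mean was at least 1.73-fold higher than Sham, and with YQFM at the floor the infarcted mean was at least 1.32-fold higher. MI 4 was the MI array at the floor. Without the 2 arrays with conflicting labels, miR-878 was 1 of the 2 higher miRNAs called. MI was also the group that let it be tested, so no p-value is given for it.

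**Figure D5:**
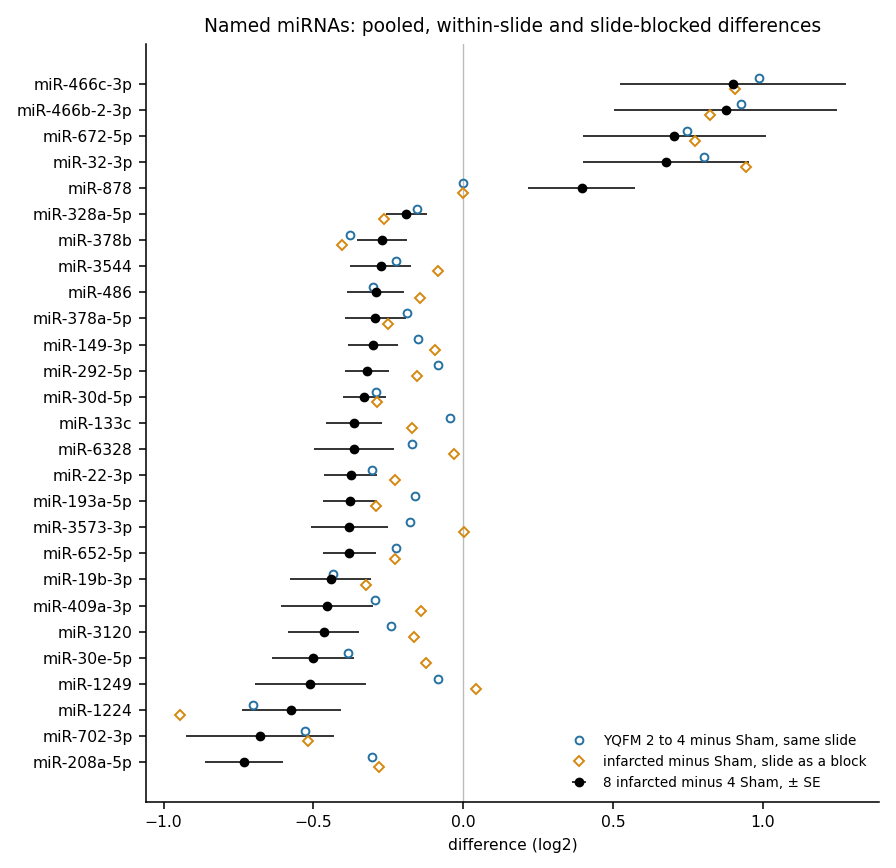
Black points are the differences between 8 infarcted and 4 Sham hearts (log2) with their SE, for the 20 miRNAs named by rule and 7 of those named after their values were seen. Blue circles are YQFM 2 to 4 minus Sham 1 to 4 on the shared slide. Orange diamonds are the fit with slide as a block, to which MI 1 to 3 add nothing. Most lower miRNAs shrink towards 0 in both, miR-378b and miR-1224 do not, and miR-878 falls to 0 because it was at the floor in every Sham and YQFM heart.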

How the data were processed

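MiRNA of 12 rat hearts (4 Sham, 4 MI and 4 YQFM) was hybridized to single-dye Agilent rat miRNA arrays, 1 per sample. The authors deposited scanner output in which spot intensity had been background-subtracted by Agilent Feature Extraction 10.7.1.1 and not scaled between arrays. A further deposited table, with the authors' processed intensity values, served as an alternative. The array annotation refers to the rat build rn4, and sequences and positions came from RefSeq on GRCr8.

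Control and outlier spots were left out. For each miRNA the mean over probes of their mean spot signal was taken, divided by the array's 75th percentile among the 201 miRNAs that every array detected, floored at 5.20 and taken as log2. Detection of a miRNA required a probe with over 50% of spots well above background. The 263 miRNAs detected on at least 2 arrays of a group were tested with limma 3.58.1 in R 4.3.3, with group means for Sham, MI and YQFM, the contrast of the mean of MI and YQFM with Sham, and Benjamini-Hochberg adjustment at 0.05. The procedure was tested on simulated data, drawn without slide effects, a floor or conflicting labels. That test therefore does not cover these features of the real arrays. An exact two-sided permutation test was run for the number detected. Values at the floor have no order, and the precision is limited by the number of arrays.

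The miRNAs named were, first, those called with the same sign in both infarcted groups and detected on at least 3 arrays of each group, of which there were 0, then those without overlap under the same detection (5), then those with the smallest p that were detected on all 12 arrays, to 20 in all. Members of the marker and functional lists were given by counts and medians, with values for the cardiomyocyte, fibroblast and miR-30 members, and miR-92a-3p and miR-92b-3p were added after their values were seen. The groups, miRNAs and lists were chosen with earlier results of these data known. Alternatives covered background correction (normexp with an offset of 50), signal, scaling, floor, detection filter, probe summary, outlier spots, left-out arrays, model, replicate block, slide, moderation and the t-test named in the methods for other data (run here 8 against 4 arrays). Python 3.11.15, pandas 2.3.3 and matplotlib 3.10.9 were used for tables and figures. Tissue other than these 12 hearts was not analysed here.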

Additional observations from a re-analysis of the deposited data

Results flagged for a closer look

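Among the 40 miRNAs given with values, in 3 groups of 4 hearts each, 120 groups were looked at. In 7 of them a single value stood apart from the other 3 hearts by more than Dixon's critical gap. Chance alone exceeds this gap in about 1 of 20 groups, and so in about as many of the 120. YQFM 1 was the high one in 4 of the 7, with log2 signals of 9.34 for miR-21-5p, 6.32 for miR-199a-5p, 8.74 for miR-199a-3p and 8.59 for miR-214-3p. These 4 form the fibroblast and scar list, and whether they vary independently was not tested. MI 3 was the low one for miR-199a-5p (3.83) and Sham 2 for miR-21-5p (7.40). MI 4 was at the floor for miR-878 (2.38).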

How the results depend on the processing

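The count of called miRNAs between infarcted and Sham hearts (1) was 0 with no scaling, quantile normalization, the 75th percentile over all miRNAs, the total gene signal, the authors' processed values, only miRNAs detected on all arrays, a 2-group model, slide as a block, the methods' t-test and within the slide that holds both groups, and 4 with the mean over all spots. It was 36 without the 2 arrays with conflicting labels and 0 to 38 when 1 array was left out. By limma the unadjusted p was under 0.05 for 11 to 47 miRNAs in the scaling and signal alternatives and for 18 with slide as a block, and by the methods' t-test for 42. The count for MI against Sham (19) was 5 with normexp, 0 with the total gene signal, the authors' processed values, no scaling and slide as a block, 3 with the 75th percentile over all miRNAs, 2 with quantile normalization and with the brightest probe, 7 with only miRNAs detected on all arrays, 58 without the conflicting arrays, 6 with the methods' t-test and 4 to 62 with 1 array left out. For YQFM against MI (0) it was 1 with normexp and with the brightest probe, 2 with quantile normalization, 28 without the conflicting arrays and 0 to 28 with 1 array left out. For YQFM against Sham it was 0 under each alternative. The number of miRNAs without overlap (7) was 0 with the total gene signal, the authors' values, no scaling, quantile normalization and the 75th percentile over all miRNAs, 11 with the mean over all spots, 1 with the brightest probe, 21 without the conflicting arrays, 21 within the shared slide and 7 to 17 with 1 array left out. The number moving the same way in both groups ranged from 139, of the 201 miRNAs detected on all arrays, to 223 without a detection filter, and the difference in the number of detected miRNAs from 0.58 to 8.79. The causes were not tested.

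Among the 40 single miRNAs given with values, signs turned as follows. With slide as a block miR-3573-3p was 0.0010, miR-1249 0.044, miR-92b-3p 0.037, miR-133a-3p 0.14, miR-133b-3p 0.059, miR-499-5p 0.077, miR-21-5p -0.16, miR-199a-5p -0.33, miR-199a-3p -0.55 and miR-214-3p -0.70. With the brightest probe miR-292-5p was 0.052, miR-1-3p 0.039, miR-133a-3p 0.14, miR-133b-3p 0.016 and miR-499-5p 0.023. With the total gene signal miR-193a-5p was 0.66, miR-1-3p 0.00994 and miR-133a-3p 0.099, and with normexp miR-193a-5p was 0.021. miR-133a-3p was 0.014 with the authors' values, 0.053 with the 75th percentile over all miRNAs, 0.056 with quantile normalization (miR-133b-3p 0.025) and 0.043 without scaling. miR-208a-5p kept its sign in all 30 alternatives that could be run and lost its call in 20.

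With the replicate block 0 miRNAs were called between infarcted and Sham hearts and 10 between MI and Sham. Deviations from the group means correlated from -0.64 to 0.32 between same-numbered arrays and from -0.57 to 0.59 between differently numbered ones. With so few arrays, spread unevenly over slides, this cannot settle whether the numbers pair them. Signal over background is the limit for dim miRNAs such as miR-208a-5p.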
